A study of Caenorhabditis elegans with 36 samples.

Results

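The ugt genes of C. elegans encode UDP-glucuronosyltransferases. They were taken by symbol, as every gene named ugt followed by a number, which gave 67 genes among the 46778 gene identifiers of the count files. Of these, 63 had at least 10 counts in 3 or more of the 36 libraries and are described here, and ugt-34, ugt-35, ugt-38 and ugt-67 did not. The same minimum was reached by 16542 genes in all. All 63 are annotated as protein-coding.

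UDP-glucuronosyltransferases are membrane enzymes of the endoplasmic reticulum that join a sugar from a UDP-sugar donor to small hydrophobic molecules, which makes the product more soluble. They are counted with the glutathione S-transferases and sulfotransferases as phase II enzymes, since they often act on molecules that a cytochrome P450 has oxidised first, and transporters then carry the conjugates out of the cell. In worms, glucose as well as glucuronic acid serves as the attached sugar, and the intestine is a main site of this metabolism. For most single worm ugt genes no substrate has been assigned, so the members below are identified by position, level and response and not by substrate.

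RNA was sequenced from whole worms of the N2 strain, here wild type (WT), and of BY273, here PD animals, in which the dat-1 promoter drives GFP and α-synuclein in dopaminergic neurons. Hermaphrodites were moved at the L4 stage to plates with krill oil at 0.5 µl per ml of medium or to control plates without it, and were collected as day 1, day 3 or day 6 adults. All animals ate OP50 bacteria, none received FdUrd, and older animals were washed and filtered daily. Strain, diet and age make 12 groups of 3 libraries, each from a pool of worms, and each p-value measures the spread between these libraries. In RNA from whole worms, fewer cells of a type and less RNA per cell cannot be told apart, and this holds for every difference below.

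The 36 libraries ranged from 16488713 to 34605080 counts (median 24785463), of which 5.31% to 24.5% fell on genes for ribosomal RNA. The highest shares were those of PD krill oil day 1 replicate 3 (24.5%) and WT control day 6 replicate 3 (23.5%). WT control day 1 replicate 3 stood apart from its group in several ugt genes, for example ugt-63, which had 32.9, 34.3 and 7.48 CPM (counts scaled to a common library total) in that group. The krill oil comparison of WT day 1 is therefore also given without this library. Intestine markers were high in every group, with summed levels from 42740.3 to 50791 CPM in WT krill oil day 6 to 90386 to 95893 CPM in PD control day 3. Markers of molting and larval cuticle, whose RNA is made mainly in larvae, were also present, from 96.6 to 124 CPM in PD control day 6 to 971 to 1087 CPM in PD krill oil day 3.

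The ugt genes are spread over all 6 chromosomes, with 42 of the 67 on chromosome V. Neighbours no more than 20000 bp apart form runs, given in WBcel235 coordinates of annotation release 115. The longest run holds 8 genes, V from 4887165 to 4911399 (ugt-12, ugt-11, ugt-9, ugt-10, ugt-67, ugt-8, ugt-14 and ugt-13 in that order). A run of 7 lies on V from 12790676 to 12830114 (ugt-5, ugt-4, ugt-6, ugt-3, ugt-18, ugt-16 and ugt-15), and a run of 6 on V from 7139475 to 7169281 (ugt-40, ugt-37, ugt-38, ugt-39, ugt-41 and ugt-36). Chromosome I holds a run of 4, ugt-26, ugt-27, ugt-28 and ugt-25. How reads shared by similar members were counted is not given in the sources used here, so values of neighbouring copies carry that uncertainty. Exons of ugt-22 overlap srz-29 by 309 bp, those of ugt-50 overlap nhr-26 by 340 bp and those of ugt-64 overlap C07G3.10 by 72 bp, in each case on the other strand. Since the strand setting of the counting is not stated, reads in such stretches cannot be assigned to one gene.

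Per length of exon, ugt-62, ugt-64 and ugt-22 had the highest levels. Levels are CPM scaled by the trimmed mean of M values (TMM) over all libraries, and between genes they are compared only per kb of exon. Over the 36 libraries ugt-62 ran from 13.3 to 54.6 CPM per kb with a median of 34.2, ugt-64 from 23.9 to 32.9 with a median of 26.7, and ugt-22 from 15.5 to 36.7 with a median of 26.3. The next in order of the mean were ugt-44 at 17.5, ugt-58 at 17.4 and ugt-25 at 14.7 CPM per kb. Neighbours in this order were mostly not separated. ugt-62 was above ugt-64 in 25 of the 36 libraries, ugt-64 above ugt-22 in 19, ugt-44 above ugt-58 in 18 and ugt-58 above ugt-25 in 18, and only ugt-22 stood above ugt-44 in nearly all, 33 of 36. Per kb of coding sequence ugt-22 came first, at a mean of 37.3 against 34.9 CPM for ugt-62. At the other end, ugt-42 averaged 0.139 CPM per kb, and the median member 2.22. The 6 highest members took 42.0% of all ugt CPM, while 12 of the 63 averaged under 1 CPM.

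**Figure D1:**
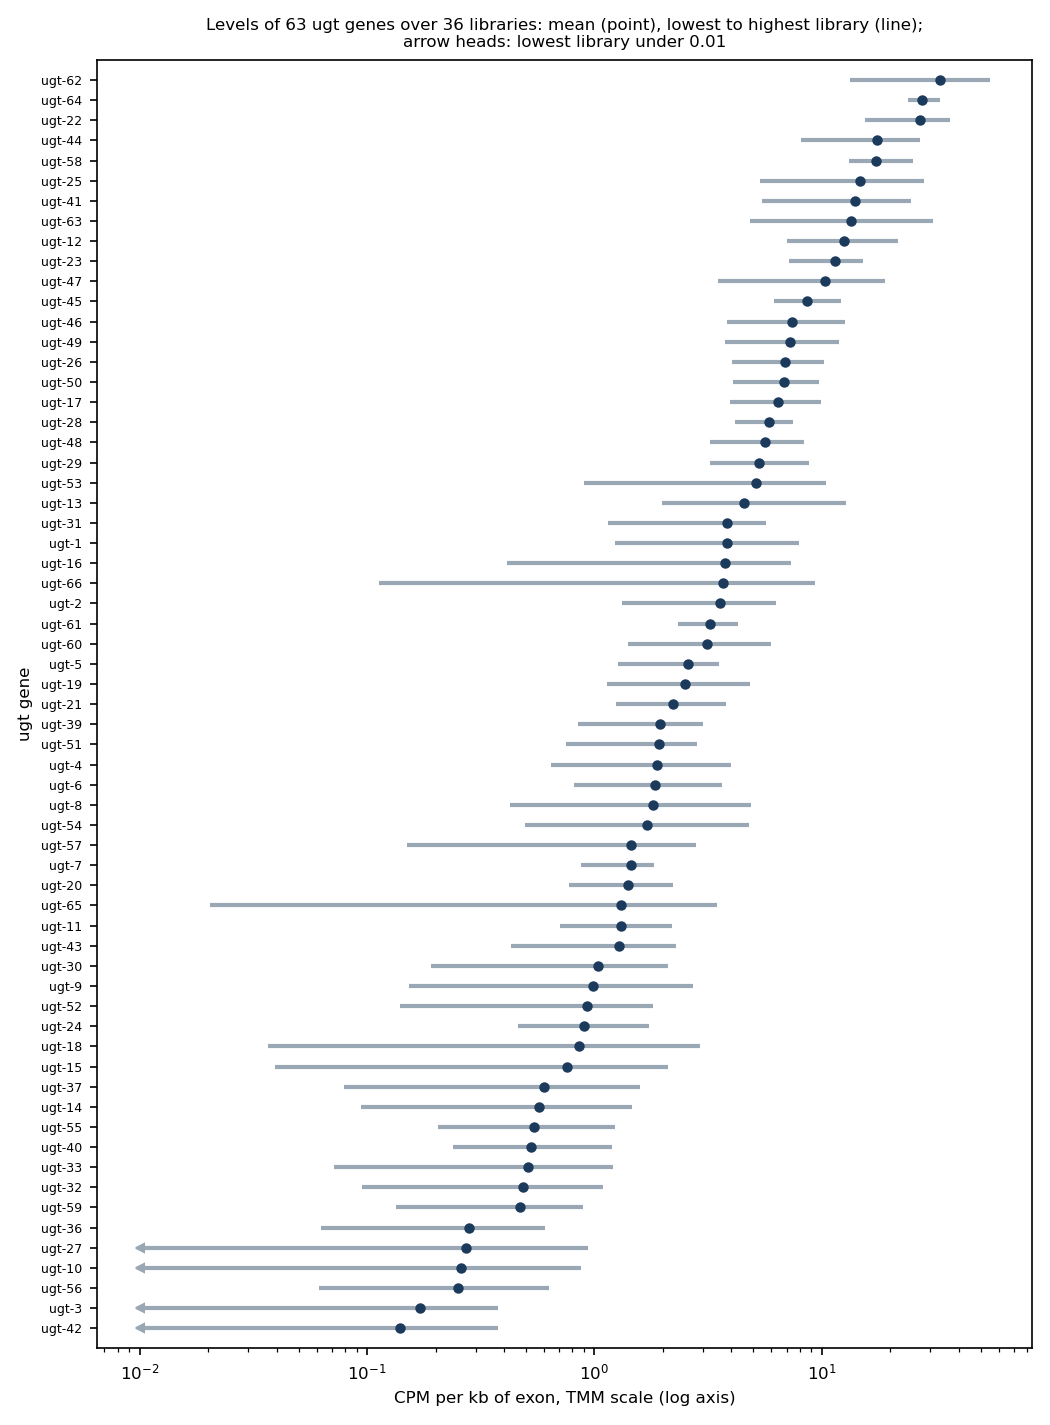
Mean level of each of the 63 ugt genes over the 36 libraries (point), in CPM per kb of exon on a log axis. A line runs from the lowest to the highest library. The family runs from ugt-42 at a mean of 0.139 to ugt-62 at 32.9 CPM per kb, and the line of ugt-64 is the shortest on this axis.

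Some members were steady and most were not. For ugt-42 the lowest group mean was 0, in PD control day 6, so it has no ratio of highest to lowest group mean. Among the other members this ratio was smallest for ugt-64, 1.30, and its median was 3.48. It passed 4 in 23 of these genes and stayed under 2 in 8. PD control day 6 was the group that most often held the minimum, for 24 of the 63, and the maximum lay most often in PD control day 1 (16 genes), WT control day 6 (11 genes) or PD krill oil day 1 (10 genes). The same was not counted over all genes, so these counts are not read as particular to the family. Of all genes, 44.3% were lower in PD than in WT controls at day 6.

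Added over all members, ugt RNA was higher on krill oil at day 3 and day 6 in both strains. In PD animals the sum was 679.5 ± 17.8 CPM in controls and 659.8 ± 27.0 CPM on krill oil at day 1, then 556 ± 2.87 against 688 ± 33.3 CPM at day 3 and 517 ± 3.50 against 656 ± 31.3 CPM at day 6 (mean ± SD, n = 3). The sums of WT animals were 554 ± 39.8 and 555 ± 26.8 CPM at day 1, 516 ± 45.1 and 643 ± 8.84 CPM at day 3, and 494 ± 16.8 and 632 ± 9.87 CPM at day 6. At day 3 and day 6 every krill oil library lay above every control library of its strain, and at day 1 the diets overlapped. Because a few abundant members carry the sum, the genes were then tested one by one.

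For krill oil against control, each strain and age was a separate comparison. The test was the quasi-likelihood test of edgeR over all genes, with Benjamini-Hochberg adjustment, and a gene is said to rise or fall where its adjusted p is under 0.05. At PD day 1, 14 of the 58 ugt genes tested rose and 16 fell, against 7.44% and 8.07% of all genes tested. At PD day 3, 28 of 61 rose and 10 fell (all genes 21.2% and 19.9%), and at PD day 6, 32 of 60 rose and 1 fell (24.8% and 12%). At WT day 1, 8 of 57 rose and 5 fell (all genes 4.87% and 2.49%), at WT day 3, 26 of 60 rose and 5 fell (22% and 14.1%), and at WT day 6, 26 of 61 rose and 17 fell (30.9% and 32.6%). The share of members called higher was above that of all genes in each of the 6 comparisons, also under every alternative and with each library left out. The share called lower was above that of all genes at day 1 in both strains and, at 1.67%, under it at PD day 6. At PD day 3 (16.4%), WT day 3 (8.33%) and WT day 6 (27.9%) it lay under that of all genes in this fit but not in every other fit. With DESeq2 it was 22.2% against 17% of all genes at WT day 6. At PD day 3 it was still under with DESeq2, 12.7% against 13.1%, but above with all 36 libraries in 1 fit, 12.7% against 11.6%. At WT day 3 it was 9.52% against 8.88% with only all-zero genes removed, and 10.0% of both without control replicate 2. Tested members are those past edgeR's filter on low counts, which a gene can pass through its higher group alone.

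The median log2 fold change over the ugt genes tested was -0.14 at PD day 1, 0.27 at day 3 and 0.55 at day 6, where the median over all genes was 0.01, 0.00 and 0.05. In WT animals it was -0.04, 0.39 and 0.12, against -0.01, 0.00 and -0.02 over all genes. Leaving out 1 library moved some of these counts by more than 1.5 times. The 16 falls at PD day 1 became 9 without control replicate 1 and 10 without control replicate 2. At WT day 1, the count of 8 rises and 5 falls became 13 and 12 without the control replicate 3 that stood apart, while 5 rises were left without krill oil replicate 2, control replicate 1 or control replicate 2 and 3 falls without krill oil replicate 1 or 2. The 1 fall at PD day 6 became 5 without krill oil replicate 3, 2 without either of its other replicates and 0 without control replicate 1 or 3. The 5 falls at WT day 3 became 3 without krill oil replicate 2 and 2 without control replicate 1. The shares of all genes moved as well. The share called lower at PD day 6 ran from 3.84% without control replicate 1 to 23.3% without krill oil replicate 3 and was 19.3% with the factors of the relative log expression method (RLE), and that at WT day 3 fell to 8.13% without control replicate 1. At PD day 1 the share of all genes called lower was 5.37% without control replicate 2. The shares of all genes at WT day 1 were 7.97% and 5.09% without control replicate 3, and as low as 2.05% and 1.22% without krill oil replicate 2.

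All 13 calls of ugt genes at WT day 1 were kept without control replicate 3, in the same direction, and 12 were added. Without it the log2 fold changes were 1.71 ± 0.12 for ugt-1 (adjusted p = 2.17e-05), 1.48 ± 0.10 for ugt-25, 1.42 ± 0.16 for ugt-31, 2.66 ± 0.39 for ugt-33, 1.35 ± 0.16 for ugt-44, -1.76 ± 0.22 for ugt-8 and -1.42 ± 0.16 for ugt-13. That of ugt-62 was 0.27 ± 0.08 (adjusted p = 0.0540), not called either way. ugt-18, named here after its values were seen, turned from -0.10 (adjusted p = 0.971) to 2.85 ± 0.69 (adjusted p = 0.0263).

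**Figure D2:**
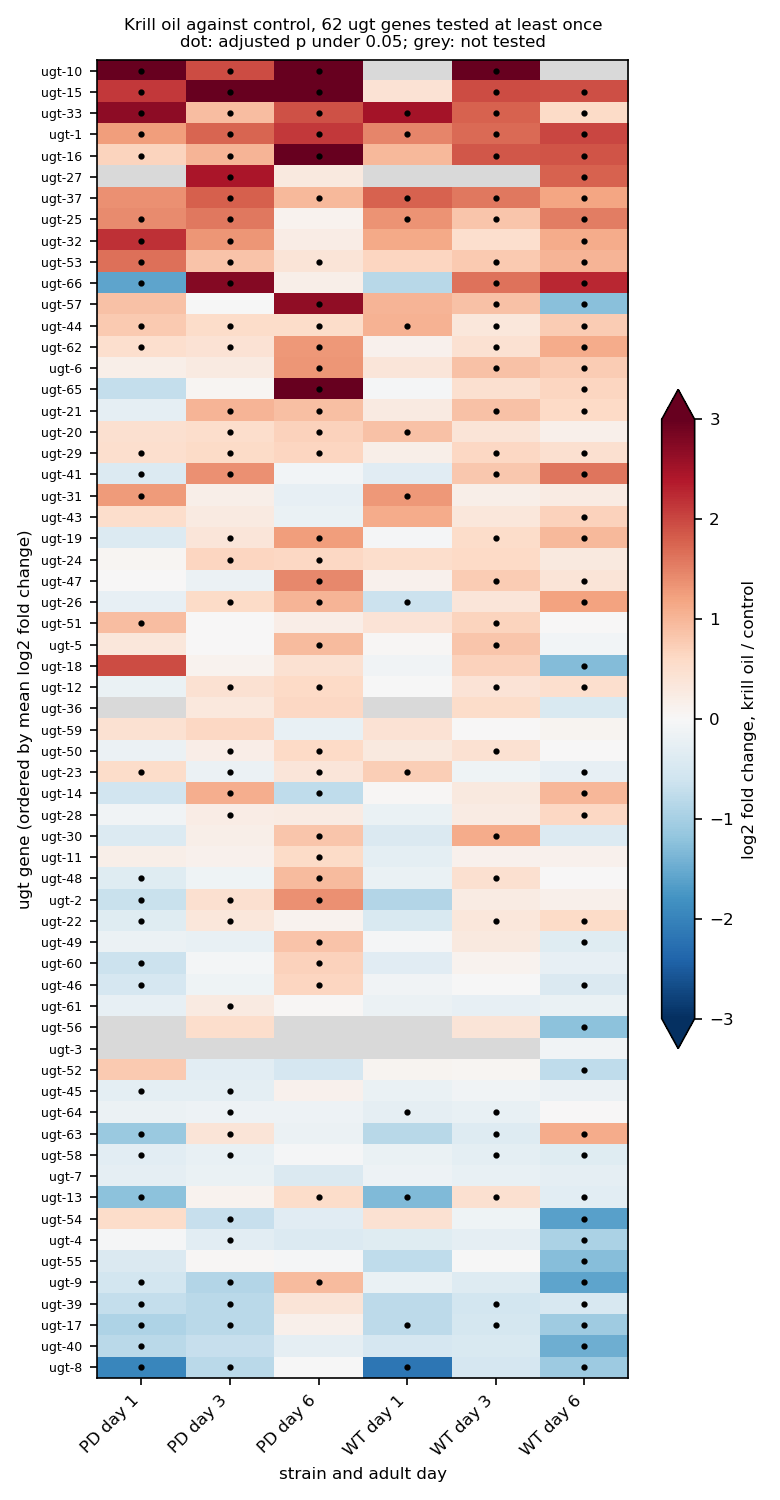
Log2 fold change of krill oil against control for the 62 ugt genes tested at least once (rows) in the 6 comparisons (columns), with a dot where the adjusted p is under 0.05 and grey where a gene was not tested. Rises are red and falls blue, and the row of ugt-1 is red with a dot in all 6 columns.

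Markers of other tissues and stages moved in several of these comparisons. Of the molting and larval cuticle markers tested, 17 of 20 were higher on krill oil at PD day 3, 20 of 20 at PD day 6 and 20 of 20 at WT day 3, with summed levels of 395 to 999 CPM on krill oil against 96.6 to 124 CPM in controls at PD day 6. All 17 sperm markers tested rose at PD day 6, with a summed level of 5.17 to 10.1 CPM in controls and 44.1 to 84.5 CPM on krill oil, and 15 of 17 rose at WT day 3 and 17 of 18 at WT day 6. Oocyte and germline markers fell in 8 of 14 cases at WT day 3 and rose in 12 of 14 at WT day 6. Also at WT day 6, 8 of 9 neuron markers fell, from a summed 391 to 409 CPM to 271 to 294 CPM, and of 20 molting markers 8 rose and 10 fell, while 6 of 9 neuron markers rose at PD day 6. Intestine markers fell in 12 of 13 cases at WT day 6, from a summed 66329 to 68638 CPM to 42740.3 to 50791 CPM. At PD day 3, 8 of 13 fell and 2 rose. At PD day 6, 7 of 13 rose and 3 fell. Their sum at PD day 6 was 49039.8 to 50423 CPM in controls and 44875 to 48336 CPM on krill oil. Body wall muscle markers rose in 7 of 7 cases at PD day 3, PD day 6 and WT day 3, and at PD day 1 6 of 7 of them and 10 of 16 sperm markers fell. Also at PD day 1, 5 of 15 molting markers rose and 1 fell. The part of these markers in the ugt results was not tested. Fewest markers moved at WT day 1, where 1 of 15 molting and 3 of 13 intestine markers rose, 3 of 7 body wall muscle markers fell, and none of 17 sperm or 14 oocyte and germline markers was called.

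Across the 6 comparisons, which share no library, 45 of the 62 members tested rose at least once and 28 fell at least once, 15 of them in both lists. Over all 15854 genes tested, 55.9% rose at least once, 53.5% fell at least once and 28.0% did both, against 72.6%, 45.2% and 24.2% of the members. Only ugt-3, ugt-7, ugt-36 and ugt-59 of the 62 were called in none, 6.45% against 18.5% of all genes. However, ugt-3 was tested in only 1 of the 6 comparisons and ugt-36 in 4, and ugt-42 was not tested in any. Members are described by direction, first members that rose in most comparisons, then members that fell in most, then members whose direction turned with age or strain.

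Of the members that rose, ugt-1 was the steadiest. It lies on chromosome V from 10395663 to 10397820. Its CPM in PD animals at day 1 was 4.98, 4.47 and 5.99 in controls and 13.7, 10.8 and 12.1 on krill oil. At day 3 the values were 2.30, 2.85 and 2.42 against 9.72, 8.38 and 7.71, and at day 6 2.22, 2.50 and 2.43 against 12.4, 8.09 and 9.83. Controls were thus low at every age and never overlapped the krill oil libraries. In WT animals the values at day 1 were 3.03, 3.13 and 4.67 in controls and 10.1, 10.4 and 9.74 on krill oil. Those at day 3 were 2.28, 2.58 and 4.12 against 9.65, 10.6 and 9.07, and those at day 6 2.42, 2.12 and 2.74 against 10.3, 8.96 and 9.48. Again no control reached a krill oil library. The log2 fold changes, given here and in what follows with ± 1 standard error, were 1.25 ± 0.14 (adjusted p = 1.19e-04), 1.75 ± 0.13 (adjusted p = 4.91e-07) and 2.11 ± 0.17 (adjusted p = 4.52e-05) in PD animals and 1.48 ± 0.18 (adjusted p = 0.00390), 1.69 ± 0.20 (adjusted p = 1.90e-04) and 2.00 ± 0.12 (adjusted p = 1.69e-08) in WT animals, in order of age. Of all members, ugt-1 alone kept a rise in all 6 comparisons under every alternative and with each library left out. The adjacent gene on the same strand, ugt-2, fell at PD day 1 (-0.66 ± 0.11) and rose at PD day 6 (1.38 ± 0.14).

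The genes ugt-33 and ugt-44 were also called higher in all 6 comparisons. ugt-33, at V from 10493409 to 10496477, had 0.311, 0.153 and 0.117 CPM in PD controls and 1.71, 0.995 and 1.07 CPM on krill oil at day 1, a log2 fold change of 2.69 ± 0.40 (adjusted p = 9.53e-04). At WT day 1 it had 0.138, 0.341 and 0.346 CPM in controls and 1.99, 1.55 and 1.34 CPM on krill oil, a log2 fold change of 2.50 ± 0.34 (adjusted p = 0.00552). Control and krill oil libraries were separate in both strains at that age. However, ugt-33 was not tested between day 1 and day 3 controls or between the day 1 controls of the strains. At day 1 its krill oil libraries alone brought it past the filter, so its being called higher there is not independent of its being tested. Its changes were smaller at PD day 3 (log2 fold change 0.94 ± 0.30, adjusted p = 0.0248) and WT day 6 (log2 fold change 0.58 ± 0.24, adjusted p = 0.0491), and these calls were lost in 4 of 6 and 5 of 6 fits that left out a library, with adjusted p up to 0.104 and 0.196. ugt-44, at IV from 10469741 to 10471899 and among the most abundant members, had 24.0, 24.1 and 26.4 CPM in controls and 49.3, 31.4 and 48.3 CPM on krill oil at PD day 1, a log2 fold change of 0.79 ± 0.14 (adjusted p = 0.00305). Its largest change was at WT day 1, from 15.9, 14.7 and 25.7 to 47.6, 38.7 and 30.2 CPM (log2 fold change 1.05 ± 0.24, adjusted p = 0.0428), with no overlap. That call was lost in 5 of 6 fits with a library left out, with an adjusted p up to 0.149.

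The neighbours ugt-15 and ugt-16 rose in 5 of the 6 comparisons each. They lie side by side at the end of the run of 7 on V, ugt-15 from 12827519 to 12830114 and ugt-16 from 12825024 to 12827442. ugt-15 had 0.117, 0.252 and 0.137 CPM in controls and 2.28, 2.42 and 1.93 CPM on krill oil at PD day 3, a log2 fold change of 3.63 ± 0.29 (adjusted p = 8.12e-07). At PD day 6 it had 0.365, 0.0782 and 0.137 against 2.54, 1.55 and 2.35 CPM (log2 fold change 3.42 ± 0.42, adjusted p = 2.78e-04), and at WT day 6 0.574, 0.632 and 0.673 against 2.22, 2.55 and 2.34 CPM (log2 fold change 1.92 ± 0.19, adjusted p = 1.99e-06). The krill oil libraries were all above the controls in these comparisons. However, ugt-15 was not tested between the day 3 and day 6 PD controls. At PD day 3 and PD day 6 its krill oil libraries brought it past the filter on low counts, so those 2 calls are not independent of its being tested. At WT day 1, in contrast, ugt-15 had 1.56, 2.11 and 0.658 CPM in controls and 1.95, 2.07 and 1.85 CPM on krill oil, which overlapped with or without control replicate 3. ugt-16 had 1.02, 0.743 and 0.778 CPM in controls and 12.8, 7.97 and 7.18 CPM on krill oil at PD day 6, a log2 fold change of 3.46 ± 0.26 (adjusted p = 3.79e-05), and 2.71, 3.16 and 2.78 against 11.5, 8.48 and 12.1 CPM at WT day 6 (log2 fold change 1.89 ± 0.15, adjusted p = 1.47e-07). At WT day 1 its adjusted p was 0.0619, and its call at PD day 1 (0.67 ± 0.16) was lost without krill oil replicate 1 or 3 or control replicate 1 (adjusted p up to 0.0674). Other members of this run moved less or in the other direction. ugt-4 fell at PD day 3 (-0.32 ± 0.11, lost in 5 of 6 fits with a library left out) and WT day 6 (-0.95 ± 0.12), ugt-18 fell at WT day 6 (-1.31 ± 0.22), and ugt-6 rose at PD day 6, WT day 3 and WT day 6 (1.33 ± 0.20, 0.88 ± 0.18 and 0.76 ± 0.15).

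**Figure D3:**
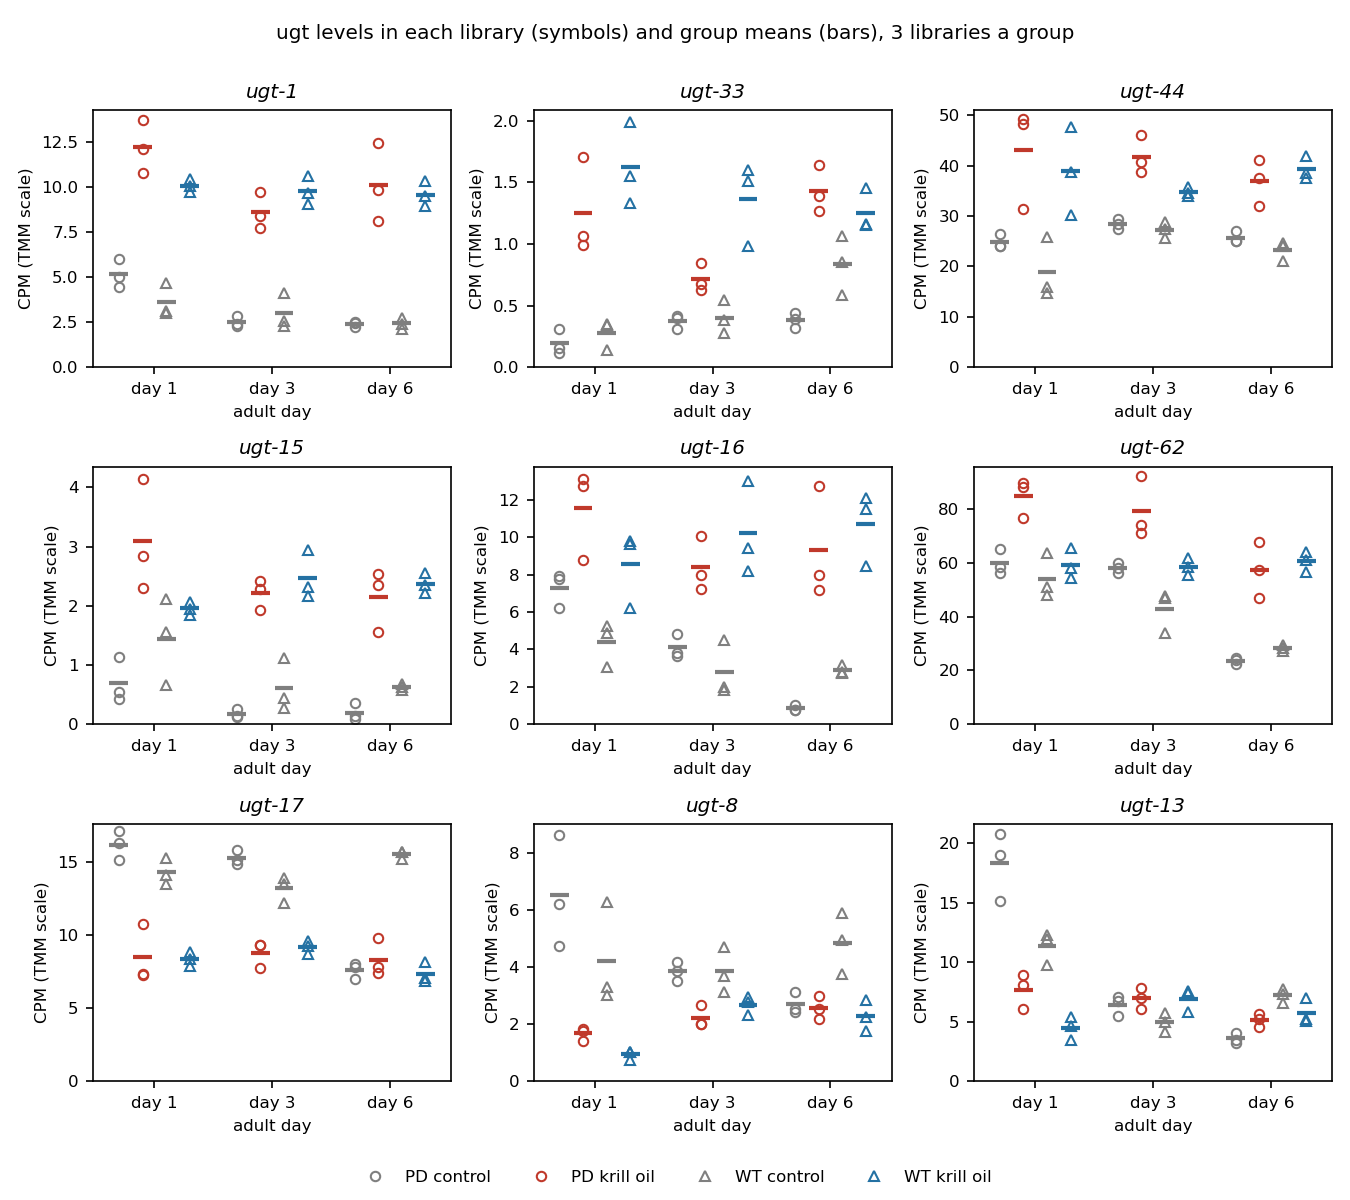
CPM of 9 ugt genes in each library, by strain, age and diet, on axes of their own. In ugt-1 every krill oil library lies above every control of its strain and age, whereas in ugt-17 the krill oil libraries lie below the controls except at PD day 6.

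The genes ugt-25, ugt-29, ugt-37, ugt-53 and ugt-62 also rose in 5 comparisons each. ugt-62, the highest member per kb of exon, had 24.0, 22.5 and 24.4 CPM in controls and 57.5, 47.0 and 67.9 CPM on krill oil at PD day 6, a log2 fold change of 1.31 ± 0.12 (adjusted p = 6.93e-05). At WT day 6 it had 27.3, 29.5 and 28.3 against 64.0, 56.6 and 61.2 CPM (log2 fold change 1.10 ± 0.06, adjusted p = 2.90e-09). The diets were apart at day 6 in both strains, while at WT day 1 they overlapped and the log2 fold change was 0.13 ± 0.12 (adjusted p = 0.572). ugt-25 rose at PD day 1 from 12.1, 10.2 and 13.9 to 29.0, 32.7 and 34.9 CPM (log2 fold change 1.42 ± 0.11, adjusted p = 1.16e-05) and at WT day 1 from 8.86, 9.96 and 12.3 to 26.7, 28.4 and 23.9 CPM (log2 fold change 1.34 ± 0.13, adjusted p = 0.00154). No control reached a krill oil library in either strain. It was not called at PD day 6, where its log2 fold change was 0.11 ± 0.08. ugt-29 changed by about the same amount wherever it was called, from 0.48 ± 0.10 at WT day 6 to 0.65 ± 0.14 at PD day 6. ugt-53 rose most at PD day 1, from 1.71, 1.41 and 1.56 to 5.65, 4.29 and 4.68 CPM (log2 fold change 1.65 ± 0.17, adjusted p = 7.49e-05), with no overlap. ugt-37 rose by 1.79 ± 0.38 at PD day 3 and 1.58 ± 0.35 at WT day 3. It shares 42 bp of exon with ugt-40 on its own strand, and ugt-40 fell at WT day 6 (-1.46 ± 0.19), where ugt-37 rose (1.18 ± 0.28). The calls of ugt-37 at PD day 6 and WT day 1 and of ugt-53 at PD day 6 were lost in 3, 4 and 3 of 6 fits with a library left out, with adjusted p up to 0.0993, 0.136 and 0.115.

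ugt-10 was a low-count member, tested only in the 4 comparisons in which its krill oil libraries brought it past the filter, so its being called higher there is not independent of its being tested. At PD day 1 controls held 0, 1 and 2 reads and krill oil libraries 22, 11 and 18 reads, so no fold change is given there. At WT day 3 it had 0.0785, 0.0726 and 0.263 CPM in controls and 1.44, 1.25 and 1.60 CPM on krill oil, a log2 fold change of 3.23 ± 0.40 (adjusted p = 2.66e-04). All 3 krill oil libraries lay above the controls. It was not tested at WT day 1, with 1, 3 and 1 reads in controls and 6, 10 and 9 reads on krill oil, or at WT day 6, with 5, 5 and 6 and 15, 10 and 25 reads.

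The opposite response was led by ugt-17, at chromosome V from 10102592 to 10104964, which fell in 5 comparisons. At PD day 1 it had 17.1, 16.3 and 15.1 CPM in controls and 10.8, 7.33 and 7.28 CPM on krill oil, a log2 fold change of -0.92 ± 0.14 (adjusted p = 0.00141). At WT day 6 it had 15.2, 15.7 and 15.7 against 7.07, 6.83 and 8.14 CPM (log2 fold change -1.07 ± 0.09, adjusted p = 4.40e-07). Krill oil libraries were below all controls in both. The exception was PD day 6, with 7.84, 7.98 and 6.96 CPM in controls and 9.77, 7.40 and 7.78 CPM on krill oil (log2 fold change 0.16 ± 0.13, adjusted p = 0.374), where controls were at the level of the krill oil libraries and the diets overlapped. All 5 falls were kept under every alternative and left-out library.

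Other members that fell in 4 comparisons were ugt-8, ugt-39 and ugt-58. ugt-8 had 6.19, 4.74 and 8.61 CPM in controls and 1.75, 1.83 and 1.42 CPM on krill oil at PD day 1, a log2 fold change of -1.95 ± 0.24 (adjusted p = 2.54e-04). At WT day 1 it had 3.30, 3.01 and 6.27 against 0.748, 1.03 and 1.02 CPM (log2 fold change -2.17 ± 0.35, adjusted p = 0.0102), a call that was lost without krill oil replicate 1 or 2, at adjusted p of 0.0550 and 0.0570. The diets did not overlap in either strain at day 1. ugt-13, the last gene of the same run, fell with it at day 1, from 20.7, 19 and 15.2 to 8.10, 8.90 and 6.10 CPM in PD animals (log2 fold change -1.24 ± 0.15, adjusted p = 2.70e-04) and from 12, 12.3 and 9.73 to 5.36, 4.65 and 3.44 CPM in WT animals (log2 fold change -1.33 ± 0.18, adjusted p = 0.00535). It rose by 0.55 ± 0.15 at PD day 6 and 0.47 ± 0.16 at WT day 3, calls that were lost in 3 and 4 of 6 fits with a library left out and with DESeq2 (adjusted p = 0.0889 and 0.0844). ugt-39 changed by -0.81 ± 0.12 at PD day 3, its lowest value, and -0.48 ± 0.13 at WT day 6. ugt-58 is abundant and changed by small amounts, the most by -0.37 ± 0.06 at WT day 6, from 36.9, 38.4 and 43.2 to 30.6, 29.9 and 30.8 CPM.

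The run of 8 on chromosome V thus held members with opposite responses. ugt-12, the first gene, rose wherever it was called, ugt-8 fell wherever it was called, and ugt-9 and ugt-14 changed direction. ugt-9 fell at PD day 1, PD day 3 and WT day 6 (-0.55 ± 0.15, -0.87 ± 0.19 and -1.58 ± 0.25) and rose at PD day 6 (0.96 ± 0.32). The rise at PD day 6 was lost in 5 of 6 fits with a library left out (adjusted p up to 0.164).

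Some calls were made at day 1 and not at day 6. ugt-31 rose at day 1 from 3.85, 2.87 and 3.13 to 8.97, 7.75 and 6.92 CPM in PD animals (log2 fold change 1.27 ± 0.15, adjusted p = 2.28e-04) and from 1.88, 2.23 and 2.63 to 5.98, 5.24 and 5.47 CPM in WT animals (log2 fold change 1.30 ± 0.17, adjusted p = 0.00478). At day 6 the log2 fold changes were -0.25 ± 0.12 and 0.24 ± 0.13, neither called. Control levels of ugt-31 rose with age at each step in both strains, though the first step in WT controls was lost in 4 of 6 fits with a library left out, reaching 8.53, 8.72 and 8.92 CPM in PD animals and 8.29, 6.43 and 7.13 CPM in WT animals at day 6. ugt-32 rose at PD day 1 (2.20 ± 0.34), PD day 3 (1.32 ± 0.20) and WT day 6 (1.12 ± 0.33). It was not tested between the day 1 controls of the strains, so at PD day 1 its krill oil libraries brought it past the filter on low counts.

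Other members turned from a fall to a rise between day 1 and day 3. ugt-66, at III from 6192116 to 6194580, fell at PD day 1 from 1.60, 1.45 and 1.76 to 0.482, 0.576 and 0.533 CPM (log2 fold change -1.59 ± 0.24, adjusted p = 9.85e-04). At PD day 3 it rose from 1.60, 3.46 and 1.51 to 15.8, 14.8 and 15 CPM (log2 fold change 2.75 ± 0.20, adjusted p = 4.66e-07), without overlap at either age. ugt-41, from the run of 6, and the abundant ugt-22 turned in the same way in PD animals, ugt-41 from -0.41 ± 0.10 to 1.38 ± 0.09 and ugt-22 from -0.36 ± 0.07 to 0.34 ± 0.04. ugt-63 fell at PD day 1 (-1.11 ± 0.11) and rose at PD day 3 (0.38 ± 0.07), while at WT day 3 it fell (-0.38 ± 0.11). It was the only member with opposite calls in the strains at day 3, and the fall in WT animals was lost in 4 of 6 fits with a library left out (adjusted p up to 0.0882). The fall of ugt-41 at PD day 1 was lost in 5 of 6 (up to 0.0708) and the rest of these falls in none.

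The calls of the strains at one age can be set side by side. At day 1, of the 57 members tested in both strains, 13 rose in PD animals and 8 in WT animals, and 6 rose in both (10.5%, against 3.61% of all genes tested in both). At day 3, 27 and 26 of 60 rose and 18 rose in both (30% against 13.3%). At day 6, 31 and 26 of 59 rose and 16 rose in both (27.1% against 7.96%). At that age 6 members (ugt-9, ugt-13, ugt-23, ugt-46, ugt-49 and ugt-57) rose in PD animals and fell in WT animals, 10.2% against 9.6% of all genes, and ugt-14 did the reverse, 1.69% against 6.61%.

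Whether the change on krill oil differed between the strains was tested as an interaction within the 12 libraries of each age. A positive value means a more positive change in PD animals. At day 1 no ugt gene of 59 passed (edgeR), against 0.0345% and 0.0552% of all genes more positive and more negative. At an unadjusted p under 0.05, 5 were more positive and 0 more negative, and DESeq2 called 0. At day 3, 4 of 61 were more positive and 6 more negative (all genes 3.4% and 6.2%), among them ugt-66 at 1.11 ± 0.32 (adjusted p = 0.0434) and ugt-47 at -0.92 ± 0.20 (adjusted p = 0.0116). The call of ugt-66 was lost in 9 of the 12 fits that left out a library, and that of ugt-47 in none. Over these 12 fits the counts ran from 2 to 5 and from 3 to 8, with 2 more positive genes left without PD krill oil replicate 1 or 2, PD control replicate 1 or 3 or WT krill oil replicate 2, and 3 more negative genes without PD krill oil replicate 1 or 3, any PD control or WT control replicate 1 or 2. At day 6, 29 of 62 were more positive and 12 more negative (all genes 34.5% and 25.1%). The median interaction was 0.38 over the ugt genes and 0.22 over all genes, and with DESeq2 the split was 21 to 13. With RLE factors it was 25 to 14.

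**Figure D4:**
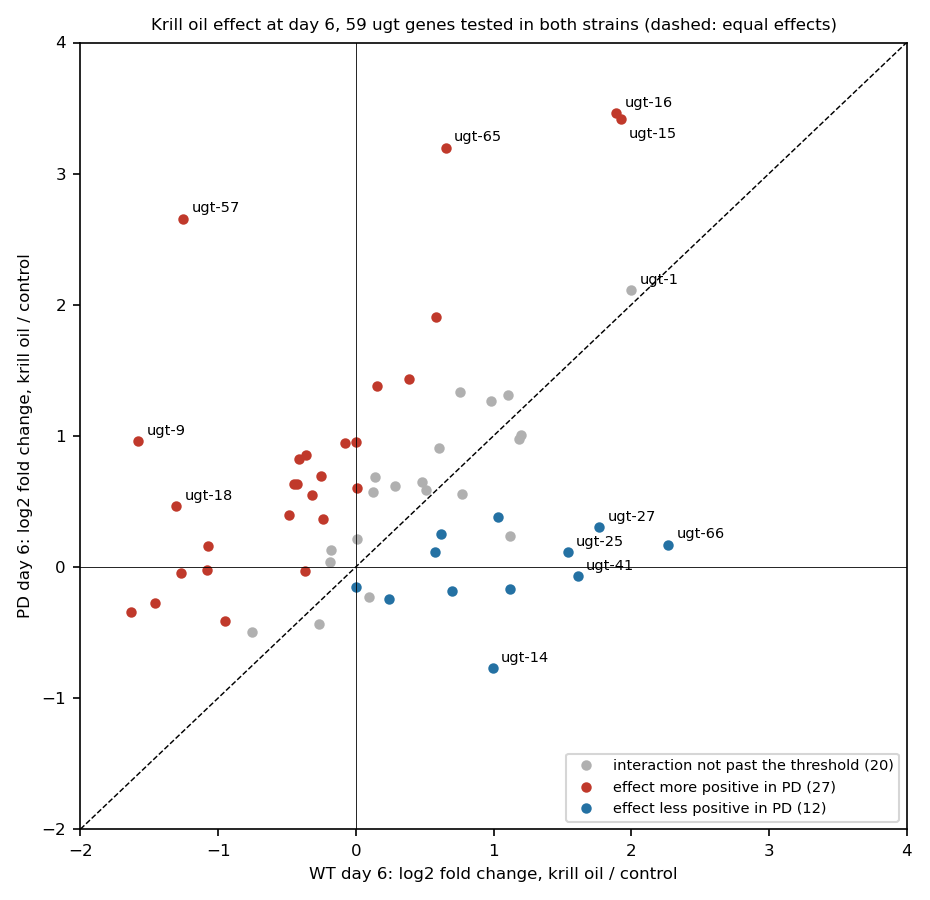
Log2 fold change of krill oil against control at day 6 in PD animals against that in WT animals, for the 59 ugt genes tested in both, coloured by the interaction call. Of these, 27 were more positive in PD animals, 12 more negative and 20 not called.

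The most positive interaction at day 6 was that of ugt-57, at chromosome X from 6991727 to 6994162. It had 0.292, 0.391 and 0.366 CPM in PD controls and 3.43, 1.68 and 1.49 CPM in PD animals on krill oil. WT animals had 5.09, 5.17 and 4.35 CPM in controls and 1.53, 2.06 and 2.49 CPM on krill oil. WT controls were the highest and PD controls the lowest, and the krill oil libraries of both strains lay between them. The log2 fold change was 2.66 ± 0.39 (adjusted p = 7.27e-04) in PD animals and -1.26 ± 0.16 (adjusted p = 2.13e-05) in WT animals, and the interaction 3.89 ± 0.43 (adjusted p = 6.88e-06). ugt-65, at IV from 12420683 to 12432636, had 0.292, 0.0391 and 0.458 against 3.39, 2.02 and 1.64 CPM in PD animals and 1.52, 2.01 and 0.942 against 2.22, 2.96 and 1.93 CPM in WT animals, with an interaction of 2.52 ± 0.60 (adjusted p = 0.00252). Its PD controls stood below every other library of that age. For ugt-9 the interaction was 2.52 ± 0.41 (adjusted p = 1.45e-04), and for ugt-18 1.75 ± 0.33 (adjusted p = 4.26e-04).

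The members ugt-66, ugt-41, ugt-27 and ugt-25 showed the reverse arrangement at day 6, with PD controls near the krill oil level. ugt-66 had 10.8, 11.5 and 11.5 CPM in PD controls, 10.8, 14.3 and 11.9 CPM in PD animals on krill oil, 2.63, 2.23 and 2.11 CPM in WT controls and 9.74, 12.3 and 11.4 CPM in WT animals on krill oil. Only WT controls were low. ugt-41 had 41.3, 42.9 and 44.1 and 32.1, 44.3 and 42.4 CPM in PD controls and krill oil libraries, and 12, 11.7 and 11.1 and 38.1, 33.9 and 33.8 CPM in those of WT animals. The order was the same, and the interactions were -2.11 ± 0.19 (adjusted p = 1.36e-06) and -1.70 ± 0.15 (adjusted p = 1.32e-06). ugt-27, a low-count member, had 1.02, 0.939 and 1.24 and 0.940, 1.49 and 1.38 CPM in PD animals and 0.164, 0.297 and 0.269 and 0.764, 0.825 and 0.930 CPM in WT animals, with an interaction of -1.48 ± 0.40 (adjusted p = 0.00575). ugt-25, of the same run on chromosome I, had 41.7, 42.2 and 41.6 and 40.6, 46.9 and 44.9 CPM in PD animals and 12.1, 12.1 and 12 and 37.7, 32.5 and 34.5 CPM in WT animals, with an interaction of -1.44 ± 0.11 (adjusted p = 4.17e-07). Its WT controls were again alone at the bottom. ugt-14 fell in PD animals (-0.77 ± 0.21) and rose in WT animals (0.99 ± 0.23), with an interaction of -1.78 ± 0.31 (adjusted p = 2.70e-04). Its fall in PD animals was lost without control replicate 1 or 3 (adjusted p up to 0.0730).

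**Figure D5:**
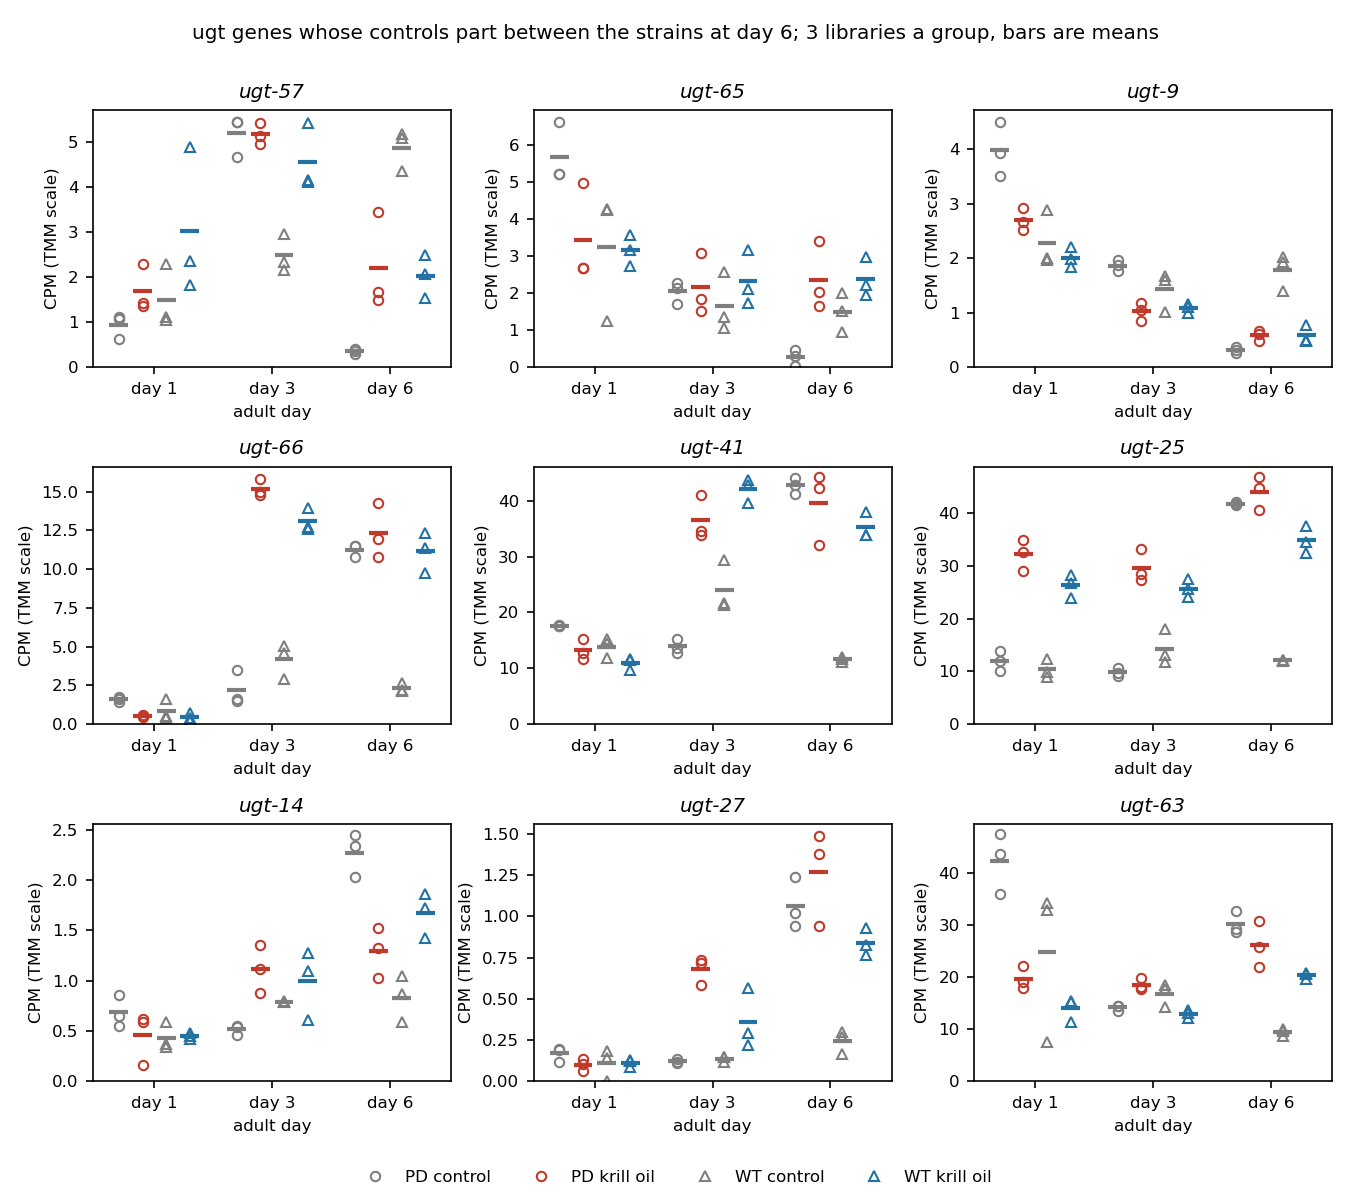
CPM of 9 ugt genes in each library, by strain, age and diet. All but ugt-63, which had opposite calls in the strains at day 3, are described above for their interaction at day 6. In ugt-57 the WT controls are highest and the PD controls lowest at day 6, and in ugt-66, ugt-41 and ugt-25 the WT controls alone are low.

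Controls were also compared directly between the strains, which uses the same control libraries as the interaction. At day 6, 13 of 60 members were higher in PD than in WT controls and 34 lower (all genes 37.2% and 44.3%), with a median log2 difference of -0.43 against -0.15 over all genes. The highest were ugt-66 (2.34 ± 0.11), ugt-27 (2.15 ± 0.31), ugt-41 (1.95 ± 0.06) and ugt-25 (1.86 ± 0.06), and the lowest ugt-57 (-3.73 ± 0.20), ugt-65 (-2.48 ± 0.44), ugt-9 (-2.45 ± 0.27) and ugt-16 (-1.69 ± 0.19). Of these, ugt-27 passed the filter on low counts through its PD control libraries, so its being called higher is not independent of its being tested. Markers also differed between these controls, with 18 of 19 molting and 11 of 13 intestine markers lower and 14 of 14 oocyte and germline markers higher in PD animals, and their part in the result was not tested. Intestine marker sums were 49039.8 to 50423 CPM in PD and 66329 to 68638 CPM in WT controls. At day 3, 13 of 58 members were higher and 5 lower in PD controls (all genes 22.4% and 16.3%), or 8 and 7 with DESeq2. Without PD control replicate 3, 2 were lower. Of the markers, 13 of 18 molting markers were higher and 11 of 16 sperm and 10 of 14 oocyte and germline markers lower in PD controls at day 3. At day 1, 2 of 55 were higher and 1 lower (3.56% and 3.31%), or 5 and 1 with DESeq2. The largest difference at day 1 was ugt-53, with 1.71, 1.41 and 1.56 CPM in PD and 5.09, 4.93 and 2.63 CPM in WT controls, a log2 difference of -1.43 ± 0.27 (adjusted p = 0.0253), a call that was lost without any library but WT control replicate 3. Without the latter the day 1 counts were 17 and 2, and without PD control replicate 1 or 2 or WT control replicate 1 both were 0.

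Ages were compared within the controls of each strain, and a difference between the strains in these changes was not tested. From day 1 to day 3, 13 of 58 members rose and 27 fell in PD controls (all genes 29.1% and 26.8%), and from day 3 to day 6, 11 of 59 rose and 28 fell (34.6% and 37.7%). In WT controls 6 of 57 rose and 3 fell to day 3 (7.27% and 7.77%), and 22 of 59 rose and 13 fell to day 6 (39% and 32.5%), or 13 and 14 with DESeq2. Without WT control day 1 replicate 3 the counts to day 3 were 17 and 14, and without any other WT control library of these ages 1 or 2 rose, and 1 or 4 fell. ugt-57 rose in PD controls to day 3 (2.47 ± 0.19), from 0.622, 1.11 and 1.06 to 4.67, 5.45 and 5.44 CPM, and then fell (-3.86 ± 0.19), with no overlap between successive ages. ugt-65 fell at both steps (-1.47 ± 0.15 and -2.96 ± 0.38). ugt-66 rose to day 3 in WT controls (2.33 ± 0.49), a call kept only when WT control day 1 replicate 3 was the library left out, and fell to day 6 (-0.88 ± 0.20), and in PD controls it rose to day 6 (2.35 ± 0.20). ugt-27, ugt-14 and ugt-25 also rose to day 6 in PD controls (3.12 ± 0.34, 2.15 ± 0.21 and 2.11 ± 0.06). Since ugt-27 was not tested between day 1 and day 3, its day 6 libraries brought it past the filter, and its rise is not independent of its being tested. From day 1 to day 3 in PD controls, 17 of 19 molting markers rose and 13 of 16 sperm, 6 of 7 body wall muscle and 10 of 14 oocyte and germline markers fell. From day 3 to day 6, 10 of 13 intestine, 15 of 19 molting and 8 of 9 neuron markers fell in PD controls. In WT controls 15 of 17 sperm and 6 of 7 body wall muscle markers fell to day 3, and to day 6 18 of 18 molting and 8 of 9 neuron markers rose and 14 of 14 oocyte and germline and 15 of 16 sperm markers fell. The part of the markers in these results was not tested.

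Of 4 genes listed for the supply and use of UDP-glucuronate, none passed at day 1 in either strain. At PD day 3 and at WT day 3, 1 rose and 2 fell, at PD day 6 1 rose and 1 fell, and at WT day 6 3 rose and 1 fell. Of all genes, 21.2% rose and 19.9% fell at PD day 3, and 24.8% and 12% at PD day 6. The shares were 22% and 14.1% at WT day 3 and 30.9% and 32.6% at WT day 6. With only 4 genes, the counts are not read against these shares. K08E3.5, also chosen for this list, matched no symbol of the data and is not among the 4. sqv-4, the UDP-glucose dehydrogenase that makes UDP-glucuronate, rose by 0.12 ± 0.03 at PD day 3 and 0.29 ± 0.03 at WT day 6. sqv-7, a Golgi nucleotide sugar transporter, fell at PD day 3 (-0.14 ± 0.03) and WT day 3 (-0.36 ± 0.08), and sqv-1, which turns UDP-glucuronate into UDP-xylose, fell with it (-0.12 ± 0.03 and -0.17 ± 0.05) and at PD day 6 (-0.22 ± 0.08). At WT day 6 both rose (0.21 ± 0.04 and 0.21 ± 0.04). D1005.2 rose at PD day 6 (1.23 ± 0.35) and WT day 3 (0.53 ± 0.18) and fell at WT day 6 (-0.85 ± 0.16).

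The products of cytochrome P450 genes often act before a UDP-glucuronosyltransferase. Only the 48 whose symbol has the letter A after the family number were listed. The counts and shares below are of these 48, and P450 genes with another letter are not in them. In PD animals 14 of 38 tested rose and 3 fell at day 1, 19 of 44 rose and 8 fell at day 3, and 14 of 41 rose and 12 fell at day 6. In WT animals the counts were 7 and 3 of 38, 11 and 9 of 40, and 14 and 9 of 41. The shares that rose were 36.8%, 43.2% and 34.1% in PD animals, against 7.44%, 21.2% and 24.8% of all genes, and 18.4%, 27.5% and 34.1% in WT animals, against 4.87%, 22% and 30.9%. Those that fell were 7.89%, 18.2% and 29.3% in PD animals, against 8.07%, 19.9% and 12%, and 7.89%, 22.5% and 22% in WT animals, against 2.49%, 14.1% and 32.6%. The share rising at WT day 3 and day 6 was thus near that of all genes. cyp-34A7 rose by 4.08 ± 0.29 at PD day 1 and 4.56 ± 0.33 at WT day 1, and cyp-14A1 by 2.12 ± 0.14 at PD day 3 and 1.57 ± 0.21 at WT day 1. cyp-13A5 fell by 1.56 on the log2 scale at PD day 3 and by 1.67 at WT day 6. emb-8, the P450 reductase that serves these enzymes, passed the test only at WT day 6, with 0.22 ± 0.03.

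Among the other conjugating enzymes, the glutathione S-transferases rose in 3, 10 and 15 of 32, 32 and 29 cases at PD day 1, day 3 and day 6, and fell in 2, 4 and 1. In WT animals 5 of 30, 8 of 32 and 7 of 36 rose and 1, 1 and 12 fell. The shares that rose were 9.38%, 31.2% and 51.7% in PD animals and 16.7%, 25% and 19.4% in WT animals, and those of all genes in the same comparisons were 7.44%, 21.2% and 24.8%, and 4.87%, 22% and 30.9%. At PD day 1 and WT day 3 the share that rose was near that of all genes, and at WT day 6 it was under it. The shares that fell in PD animals were 6.25%, 12.5% and 3.45%, against 8.07%, 19.9% and 12% of all genes. In WT animals 2.49%, 14.1% and 32.6% of all genes fell. The falls of the glutathione S-transferases were near these shares at WT day 1 and day 6 and under that at day 3. gst-4, a known target of the stress regulator SKN-1, rose by 1.40 ± 0.11 at PD day 3 and 2.11 ± 0.13 at WT day 3. gst-6 rose at day 1 in both strains (1.20 ± 0.15 and 1.36 ± 0.19). The sulfotransferase ssu-1 fell at WT day 6 (-1.19 ± 0.32).

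For the transporters, P-glycoproteins rose in 4 of 13, 3 of 13 and 9 of 14 cases at the successive ages of PD animals and fell in 3, 2 and 0. In WT animals 3 of 13, 7 of 14 and 3 of 14 rose and 2, 2 and 5 fell. With so few genes, these counts are not read against the shares of all genes. pgp-9 rose by 1.17 ± 0.06 at PD day 3 and 1.17 ± 0.10 at WT day 3, while pgp-1 fell (-1.60 ± 0.08 and -1.09 ± 0.12). Of the 8 multidrug resistance proteins, mrp-5, a heme exporter, rose at PD day 3, PD day 6, WT day 1 and WT day 3, by 0.54 ± 0.06 at WT day 1.

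Among 17 regulators of xenobiotic and stress responses, the nuclear receptor gene nhr-8, needed for resistance to some toxins and for sterol balance, fell in all 6 comparisons. The log2 fold changes were -1.83 ± 0.12, -1.58 ± 0.11 and -0.59 ± 0.19 in PD animals and -1.34 ± 0.15, -0.94 ± 0.20 and -1.48 ± 0.11 in WT animals, in order of age. The smallest was again that of PD day 6, and nhr-8 fell in PD controls between day 3 and day 6 (-1.22 ± 0.13). pha-4, a FoxA factor of the pharynx and intestine, rose at PD day 1 (0.78 ± 0.19) and PD day 6 (1.39 ± 0.19) and fell at WT day 6 (-1.09 ± 0.11). pqm-1, an intestinal zinc finger factor, fell at PD day 3, WT day 3 and WT day 6 (-0.73 ± 0.06, -0.40 ± 0.11 and -0.85 ± 0.06). Over the list, 1, 2 and 3 of 17 regulators rose at PD day 1, day 3 and day 6 (5.88%, 11.8% and 17.6%). These shares were under those of all genes (7.44%, 21.2% and 24.8%). In PD animals 2, 6 and 2 fell (11.8%, 35.3% and 11.8%), against 8.07%, 19.9% and 12% of all genes. In WT animals 0, 3 and 3 rose and 2, 4 and 10 fell. Of all genes there, 4.87%, 22% and 30.9% rose and 2.49%, 14.1% and 32.6% fell.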

How the data were processed

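The deposited count files, 1 for each library, hold whole-number counts per gene without normalization. Per the labels, ribosomal RNA was depleted from total RNA and read pairs were aligned by the authors to WBcel235 with STAR 2.7.10a. The program that counted reads per gene and its strand setting are not given in the sources used here. Symbols and positions came from annotation release 115, which held 46603 of the 46778 identifiers. After filterByExpr and TMM scaling, edgeR 4.0.16 in R 4.3.3 was run with its quasi-likelihood test, each comparison in a fit of its own libraries, with Benjamini-Hochberg adjustment over all genes tested. Standard errors were derived from the fold change and edgeR's F statistic. The tests were checked on simulated counts. No 2 replicates agreed within sampling noise. Members, gene lists and markers were chosen with earlier results of these data known.

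Genes named were, per krill oil comparison, up to 6 rises and 6 falls of largest size (4 and 4 for age, strain and interaction), with an adjusted p under 0.05, at least 1 CPM in a group and, outside the interaction, no overlap. The 6 highest members and up to 4 of each pathway list were added, and other members were named to complete a run, a count or a member's calls. Alternatives were DESeq2 1.42.0, relative log expression (RLE) factors, removal of only all-zero genes, a replicate block, all 36 libraries in 1 fit and each library left out. An alternative without genes for ribosomal RNA was chosen after seeing the data.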

Additional observations from a re-analysis of the deposited data

Results flagged for a closer look

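Several ugt genes had a krill oil response that differed between the strains by the interaction test of edgeR. Positive values mean a more positive log2 change in PD animals. At day 6 the most positive were ugt-57 (3.89), ugt-9 (2.52), ugt-65 (2.52) and ugt-18 (1.75). For ugt-57, ugt-65 and ugt-9, PD controls were the lowest of the 4 groups of that age. ugt-18 fell in WT animals, from 2.95, 4.94 and 3.05 CPM to 1.22, 1.54 and 1.67 CPM, and was not called in PD animals. The most negative at day 6 were ugt-66 (-2.11), ugt-14 (-1.78), ugt-41 (-1.70) and ugt-27 (-1.48). All 8 stayed past the threshold with each library left out. Molting, intestine and neuron markers had positive interactions at the same age in 18 of 20, 11 of 13 and 8 of 9 cases, and oocyte and germline markers negative ones in 12 of 14, and their part was not tested.

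At day 3 fewer members passed, and 11 of 20 molting markers had negative interactions. The positive ones were ugt-66 (1.11), ugt-63 (0.75), ugt-25 (0.74) and ugt-41 (0.57), and the 4 most negative of 6 were ugt-47 (-0.92), ugt-57 (-0.89), ugt-5 (-0.82) and ugt-51 (-0.67). ugt-66 and ugt-41 thus had interactions of opposite sign at day 3 and day 6. ugt-63 fell in WT animals (-0.38 ± 0.11) and rose in PD animals (0.38 ± 0.07) at day 3. Leaving out 1 library ended the call of ugt-66 in 9, of ugt-51 in 10, of ugt-41 in 6 and of ugt-5 in 2 of 12 fits.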

How the results depend on the processing

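None of the 131 named results changed direction under any alternative. With each library left out in turn, 776 of 882 values stayed past the threshold and 106 did not. DESeq2 ended 3 of the 131 calls, all 36 libraries in 1 fit 7, removal of only all-zero genes 2 and the replicate block 10, and RLE factors and the counts without ribosomal RNA genes none. Of the krill oil calls, 22 of 30, 27 of 38 and 22 of 33 held under every alternative at the successive ages of PD animals, and 8 of 13, 22 of 31 and 36 of 43 in WT animals.

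Some counts of ugt genes moved by over 1.5 times. For PD day 6, lower went from 1 to 2 (DESeq2), 3 (RLE factors), 3 (all 36 libraries fitted together) and 2 without ribosomal RNA genes. For WT day 1, lower went from 5 to 8 with DESeq2, 8 with only all-zero genes removed and 9 with all libraries, and higher from 8 to 14 with all libraries. From day 1 to day 3 in WT controls, higher went from 6 to 12 with all libraries and lower from 3 to 14, or to 6 with only all-zero genes removed. From day 3 to day 6 in WT controls, higher went from 22 to 13 with DESeq2, whose median over all genes was 0.22 against 0.10. For PD against WT controls, higher at day 1 went from 2 to 5 (DESeq2), 6 (all-zero genes removed) and 11 (all libraries), higher at day 3 from 13 to 8 (DESeq2), and lower at day 3 from 5 to 8 (all-zero genes removed). For the interaction, higher at day 1 went from 0 to 4 (all-zero genes removed), and higher and lower at day 3 from 4 and 6 to 2 and 2 (all libraries). The cause was not tested.

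Leaving out 1 library gave 9 to 13 falls at PD day 1, 0 to 5 at PD day 6, 5 to 13 rises and 3 to 12 falls at WT day 1, and 2 to 6 falls at WT day 3. The ranges were 1 to 17 rises and 1 to 14 falls from day 1 to day 3 in WT controls, 0 to 17 higher and 0 to 2 lower for the strains at day 1, 2 to 7 lower at day 3, and 2 to 5 higher and 3 to 8 lower for the day 3 interaction.

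The replicate numbers did not pair the libraries, since correlations of same-numbered libraries ran from -0.169 to 0.283 and no comparison had all 3 over 0.1. With the replicate block, the counts from day 1 to day 3 in WT controls were 3 higher and 1 lower, and the count of higher genes between the strains at day 1 was 4. A description minimum met in 1 library would give 64 genes and no minimum 67. With 3 libraries a group and 12 members averaging under 1 CPM, a call that was not made says little about such members.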
